A study of Saccharomyces cerevisiae with 8 samples.

Results

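Among the genes of amino acid biosynthesis in budding yeast (Saccharomyces cerevisiae), sulphur assimilation included, 37 were measured in a comparison of cells lacking YAP1 (yap1d) with wild type (WT) under hydroxyurea. Members were taken by a rule on names: the array feature had to carry 1 gene symbol beginning with ARG, HIS, LEU, ILV, LYS, TRP, ARO, MET, CYS, SER, THR or HOM followed only by digits. This rule took 39 of 6912 features, and 2 of the genes, ARO8 and MET2, had 2 features, which were averaged. MET17 and LYS2, which mark the strain backgrounds, are given apart, so 35 of the 3127 named genes make up the set described here. Of 83 yeast genes in the RefSeq table whose symbol has this form, 46 were not analysed here, and 6 of these shared their feature's annotation with other genes. The 35 members were 10 genes of the sulphur pathway, 4 of serine, threonine and homoserine synthesis, 5 of the branched-chain pathway, 7 of the aromatic pathway, 6 of arginine synthesis, 2 of lysine synthesis and 1 of histidine synthesis.

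Yeast makes all protein amino acids itself, and the activator Gcn4 raises many of these pathways when amino acids run short. Sulphur follows a route of its own, in which sulphate is reduced with NADPH and thioredoxin to sulphide, built into homocysteine and methionine, and passed through cystathionine to cysteine under the activator Met4. Cysteine in turn is needed for glutathione, so this route lies next to the oxidative stress response that the transcription factor Yap1 governs.

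All cultures, yap1d and WT alike, grew in rich YPD medium to an optical density of 0.5 before hydroxyurea, which blocks ribonucleotide reductase, was added at 200 mM for 2 h. The comparison was made in the laboratory backgrounds BY4741 and BY4742. Both carry deletions in HIS3, LEU2 and URA3, BY4741 also lacks MET17 and BY4742 also lacks LYS2, by the known genotypes of these strains. Both RNAs, yap1d and WT, shared each of the 2 slides per background, with yap1d in channel 1 on slides 19 and 21 and in channel 2 on slides 20 and 22, and a slide came with a fort and a faible column. How many clones or cultures stand behind a slide was not given in the sources used here, so p-values measure only the spread between these slides, which may be technical. Without a culture free of the drug the values compare genotypes and not the response to hydroxyurea. In these bulk cultures, fewer expressing cells and less RNA per cell cannot be told apart.

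Values are log2 ratios of yap1d over WT, where base 2 is taken because no label states one; with another base the folds would differ and the tests would not. Slides correlated across features at 0.760 to 0.810 where the channels were exchanged and at 0.847 and 0.858 where they were not, so most of a deposited ratio belonged to the channel. As a likely direction, signs were set so that the Yap1 targets TRX2 (-1.57) and TRR1 (-0.998) were lower in yap1d, and every sign below would turn with it. An effect is the mean of the 2 backgrounds ± SD (n = 2), each background being the mean of its 2 slides, in which a channel effect of equal size cancels. The spread of slide values was unequal, however, with SDs over all units of 0.499 and 0.542 on slides 19 and 20 and of 0.420 and 0.556 on slides 21 and 22. A unit is a gene or a feature without a single gene name.

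The amino acid genes stayed close to 0 as a group, with CYS4 as the exception. CYS4, which encodes cystathionine beta-synthase, the entry of homocysteine into cysteine synthesis, was 1.37-fold lower in yap1d. Of the 35 members, 1 fell, none rose and 34 did not pass limma's test at an adjusted p of 0.05, taken over all 6695 units. Over all units 1.21% were called lower and 0.538% higher. Unadjusted p-values under 0.05 were found for 2 members that were lower (CYS4 and LYS9) and for no member that was higher, against 3.53% of all units lower and 3.97% higher. The median of the members was 0.0019 and that of all units 0.0044, and the median absolute value was 0.0719 against 0.0681. No member had the same sign on all 4 slides with the channel effect left in, as 266 units, or 3.97%, had. In size, 12 members, or 34.3%, lay more than 0.1 from 0, compared with 32.5% of all units. Apart from CYS4, the 95% intervals of the members lay between -0.44 and 0.40, that is between a 1.36-fold fall and a 1.32-fold rise. These intervals rest on the common SD of 0.153 that limma set for every unit, and the smallest mean called in any unit was 0.36.

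**Figure D1:**
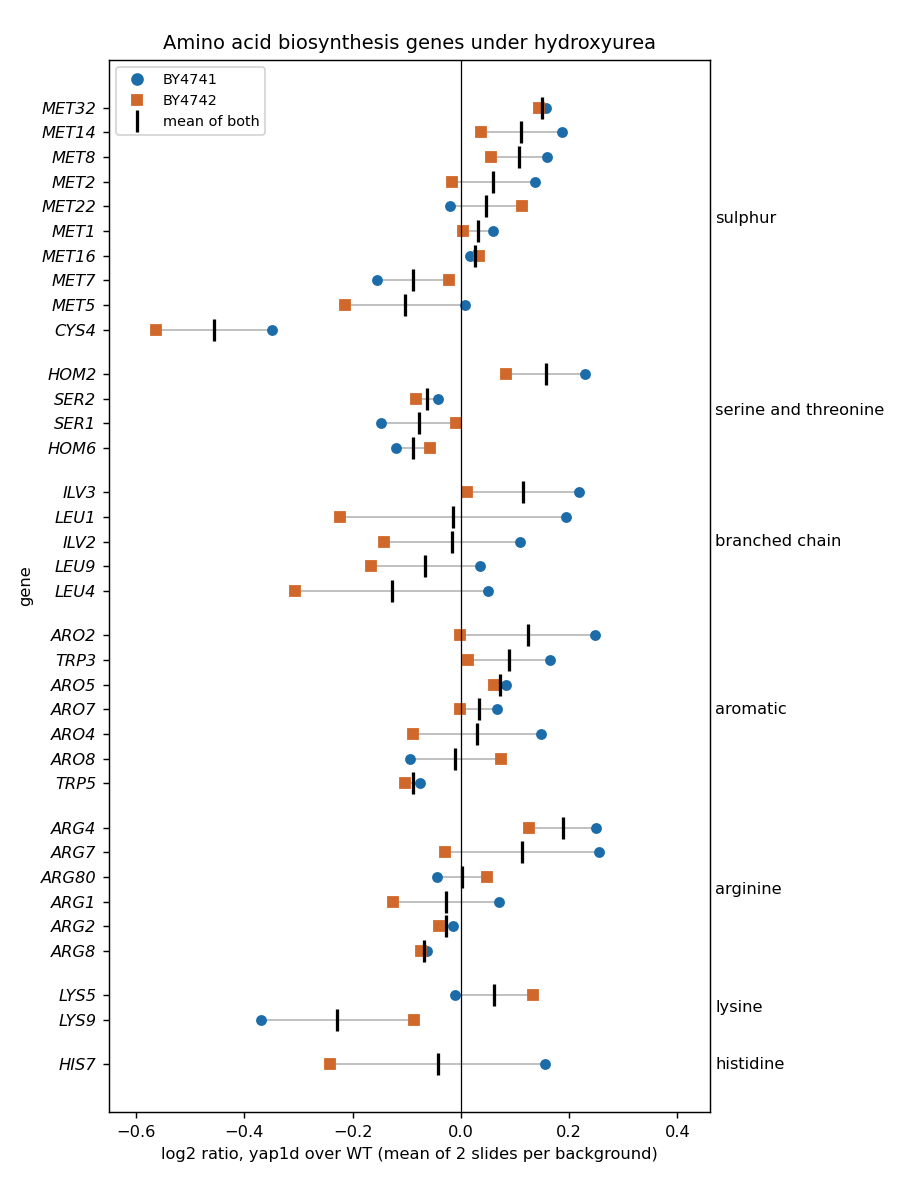
Mean log2 ratio of yap1d over WT for the 35 members, grouped by pathway, in BY4741 (circles) and BY4742 (squares), with a bar at the mean of both. Each background is the mean of 2 slides. CYS4 is lowest at -0.46, LYS9 follows at -0.23, and the remaining 33 means lie between -0.13 and 0.19.

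In the sulphur pathway 1 of 10 genes, CYS4, fell, and none of the measured genes of sulphate reduction passed. CYS4 was at 0.38 on slide 19 and -1.08 on slide 20 in BY4741, and 0.16 on slide 21 and -1.29 on slide 22 in BY4742. Both slides with yap1d in channel 2 were far below 0 and both with yap1d in channel 1 above it, so the sign differed with the channel, whose effect for this feature was 0.72. Once the channels were balanced, both backgrounds were below 0, at -0.35 in BY4741 and -0.56 in BY4742, which gave -0.46 ± 0.151 (adjusted p = 0.00239 with limma). In the fit of the 4 slides with a term for the channel its adjusted p was 0.0230. In that fit CYS4 was again the single member called, lower, with none higher, where 0.792% of all units were called lower and 0.299% higher. The call did not survive every setting: with the columns scaled to a common spread CYS4 was at -0.39 (adjusted p = 0.281), after quantile normalization at -0.40 (adjusted p = 0.272), without slide 19 at -0.51 (adjusted p = 0.448) and without slide 21 at -0.40 (adjusted p = 0.490). In these settings limma's prior on the variance had finite degrees of freedom. They were 6.05 with the common spread, 5.52 after quantile normalization, and 3.47 without slide 19 or without slide 21. With print block medians removed the prior was infinite, and CYS4, at -0.40, stayed called (adjusted p = 0.00293 with limma). The fit of the 4 slides, with 8.74 prior degrees of freedom, also kept the call. The value of CYS4 stayed below 0 in all 14 alternatives, between -0.51 and -0.39. Some of these could not change it: the fit of the 4 slides, a robust variance prior, features taken singly, and units at 0 left out.

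The enzymes that reduce sulphate were on both sides of 0. The adenylylsulfate kinase gene MET14 was at -0.34 on slide 19 and 0.71 on slide 20 in BY4741, and -0.66 on slide 21 and 0.74 on slide 22 in BY4742, a mean of 0.11 ± 0.107. Here the slides with yap1d in channel 2 were the high ones, the reverse of CYS4. The gene of PAPS reductase, MET16, which takes its electrons from thioredoxin, was at 0.026 ± 0.0115, with 0.018 in BY4741 and 0.034 in BY4742. MET5, the beta subunit of sulfite reductase, was at 0.0075 in BY4741 and -0.21 in BY4742, a mean of -0.10 ± 0.156. MET1 (0.032 ± 0.0398) and MET8 (0.11 ± 0.0734), which make the sirohaem of that reductase, and the homoserine acetyltransferase gene MET2 (0.060 ± 0.108) did not pass either. The regulator measured in this pathway, MET32, a zinc-finger partner of Met4, was at -0.11 on slide 19 and 0.43 on slide 20 in BY4741, and -0.33 on slide 21 and 0.62 on slide 22 in BY4742. Its backgrounds were close, at 0.16 in BY4741 and 0.14 in BY4742, and the mean of 0.15 ± 0.00972 did not pass (adjusted p = 0.971). MET22, which removes the PAP left by sulphate reduction, was at 0.047 ± 0.0946, and the folylpolyglutamate synthetase gene MET7 was at -0.088 ± 0.0946. For MET22, 1 of the 4 fort columns read exactly 0, which occurred for no other member. With CYS4 left in, the 10 sulphur members had a median of 0.039, 3 of them below 0 and 7 above.

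The genes that supply the carbon skeletons of this route were near 0 too. HOM2, aspartic semialdehyde dehydrogenase, was at 0.69 on slide 19 and -0.23 on slide 20 in BY4741, and 0.61 on slide 21 and -0.44 on slide 22 in BY4742, and its mean of 0.16 ± 0.103 did not pass (adjusted p = 0.940). HOM6, homoserine dehydrogenase (-0.088 ± 0.0451), the phosphoserine aminotransferase gene SER1 (-0.078 ± 0.0981) and the phosphoserine phosphatase gene SER2 (-0.063 ± 0.0292) were below 0. All 4 had the same sign in both backgrounds, and none of them passed the test.

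For all 5 branched-chain genes the difference between the backgrounds was larger in size than the mean, and neither passed a test. Over all units too, the median absolute difference, 0.141, was above the median absolute mean, 0.0681. LEU1, isopropylmalate isomerase, was at 0.91 on slide 19 and -0.52 on slide 20 in BY4741, and 0.40 on slide 21 and -0.85 on slide 22 in BY4742, which is 0.20 in BY4741 and -0.22 in BY4742. LEU4, an isopropylmalate synthase, was at 0.72 on slide 19 and -0.62 on slide 20 in BY4741, and 0.33 on slide 21 and -0.94 on slide 22 in BY4742, which is 0.050 in BY4741 and -0.31 in BY4742. The slides with yap1d in channel 1 were above 0 and those in channel 2 below it for both genes, and in each orientation the BY4742 slide was the lower one. The paralogous synthase gene LEU9 (0.035 in BY4741 and -0.17 in BY4742) may share hybridisation with LEU4, so their separate values are uncertain. ILV2, the catalytic subunit of acetolactate synthase, was at 0.11 in BY4741 and -0.14 in BY4742. ILV3, the iron-sulfur enzyme dihydroxyacid dehydratase, was at 0.67 on slide 19 and -0.24 on slide 20 in BY4741, and 0.52 on slide 21 and -0.50 on slide 22 in BY4742, a mean of 0.11 ± 0.146. Over the 5 genes the mean ranged from -0.13 to 0.11 and none passed.

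Aromatic, arginine, lysine and histidine genes held no call. In the aromatic pathway ARO2, chorismate synthase, was at 0.47 on slide 19 and 0.025 on slide 20 in BY4741, and 0.36 on slide 21 and -0.36 on slide 22 in BY4742, and its mean was 0.12 ± 0.176. ARO4, the DAHP synthase inhibited by tyrosine, showed the largest channel effect of the members: it was at 1.12 on slide 19 and -0.83 on slide 20 in BY4741, and 0.82 on slide 21 and -1 on slide 22 in BY4742, yet averaged 0.029 ± 0.167. The other aromatic genes ran from -0.089 for TRP5, tryptophan synthase, to 0.089 ± 0.107 for TRP3, with ARO7, chorismate mutase, at 0.033 ± 0.0486, the aromatic aminotransferase gene ARO8 at -0.010 ± 0.118 and ARO5 (YGL117W) at 0.072 ± 0.0150. In arginine synthesis ARG4, argininosuccinate lyase, was highest, at 0.52 on slide 19 and -0.015 on slide 20 in BY4741, and 0.26 on slide 21 and -0.010 on slide 22 in BY4742. It had a mean of 0.19 ± 0.0875 (adjusted p = 0.774), which was -0.023 once the medians of print blocks were removed. ARG7, ornithine acetyltransferase, was at 0.73 on slide 19 and -0.22 on slide 20 in BY4741, and 0.37 on slide 21 and -0.43 on slide 22 in BY4742, so BY4741 was above 0 and BY4742 near it (0.26 in BY4741 and -0.029 in BY4742). ARG1 (-0.028 ± 0.139), ARG2 (-0.028 ± 0.0186), ARG8 (-0.068 ± 0.00795) and the regulator gene ARG80 (0.0019 ± 0.0663) lay nearer to 0. In lysine synthesis LYS9, the saccharopine dehydrogenase that forms saccharopine, was second to CYS4 in size. LYS9 was at 0.42 on slide 19 and -1.16 on slide 20 in BY4741, and 0.58 on slide 21 and -0.75 on slide 22 in BY4742. Slide 20 was the lowest of these, BY4741 was at -0.37 against -0.086 in BY4742, and the mean of -0.23 ± 0.201 did not pass (unadjusted p = 0.0351, adjusted p = 0.557). LYS5, which activates the Lys2 enzyme, was at 0.062 ± 0.102, and HIS7, imidazole glycerol phosphate synthase, was at 0.63 on slide 19 and -0.32 on slide 20 in BY4741, and 0.19 on slide 21 and -0.67 on slide 22 in BY4742, a mean of -0.043 ± 0.280.

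**Figure D2:**
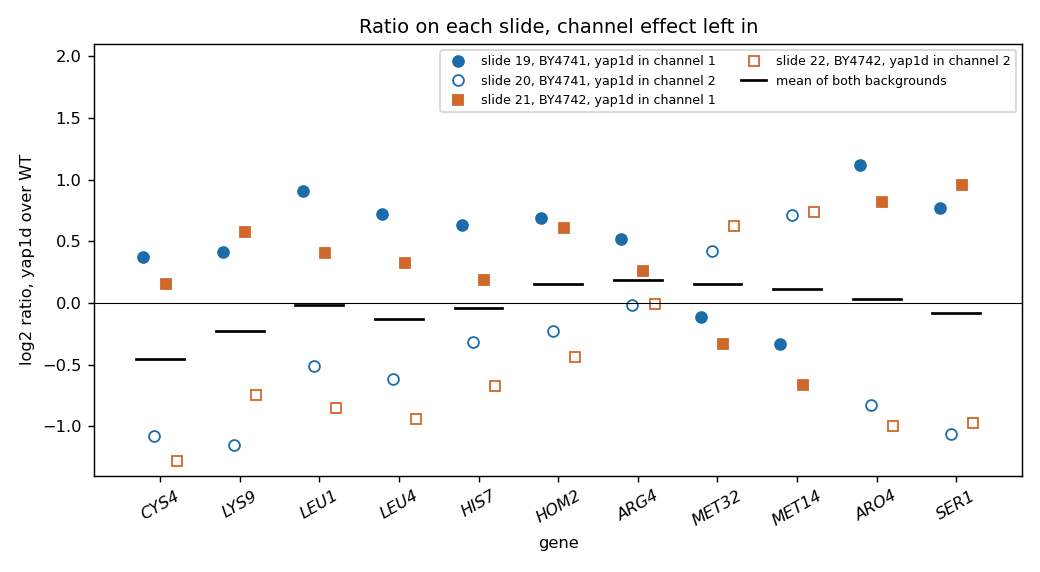
Log2 ratio of yap1d over WT on each of the 4 slides for 11 members, with the channel effect left in; filled symbols have yap1d in channel 1, open symbols in channel 2, circles are BY4741 and squares BY4742, and the line is the mean of both backgrounds. For most genes the filled and open symbols lie far apart, as for ARO4 with 1.12 and -0.83 in BY4741, while the mean stays near 0; for CYS4 the mean is -0.46.

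Whether the effect of yap1d depended on the background was tested on the 4 slides, and no member passed. The unadjusted p was under 0.05 for 3 members (LEU1, HIS7 and LEU4), or 8.57% of the 35, against 11.5% of all units, none of which passed after adjustment. BY4742 minus BY4741 was -0.42 for LEU1 (unadjusted p = 0.0128, adjusted p = 0.331), -0.40 for HIS7 (adjusted p = 0.340) and -0.36 for LEU4 (adjusted p = 0.371). All 3 were above 0 in BY4741 and below 0 in BY4742. More widely, 26 of the 35 members, or 74.3%, were lower in BY4742 than in BY4741, compared with 45.4% of all units, and all 5 branched-chain genes were among the 26. The median difference was -0.10 for the members and 0.024 for all units. All units include features without a single gene name. Neither the share nor the median difference was computed over the named genes alone. Over the 35 members the values of the backgrounds correlated at r = 0.352 and rho = 0.236, and without CYS4 at r = 0.105; these points share the same slides and are not replicates.

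The channel effect moved with the BY4742 values more than with the difference between backgrounds, and its part in either was not tested. The channel effect and the value of a background are computed from the same slides, so slides of unequal spread are enough to correlate them. Scaling the columns acts on that spread, so these correlations, scaled or not, support nothing by themselves. Across all 6695 units the channel effect correlated with the BY4742 value at r = -0.369 and with the BY4741 value at r = -0.140, and across the 35 members at -0.447 and -0.173. Its correlation with BY4742 minus BY4741 was r = -0.194 over all units and -0.217 over the members, and -0.0455 and -0.0263 with the columns scaled to a common spread. With that scaling the BY4742 correlations were 0.0136 over all units and 0.0233 over the members. Under this scaling 24 of 35 members, all 5 branched-chain genes included, were lower in BY4742. The share of all units was not computed with scaled columns, so this count supports nothing by itself. The median difference was -0.095 for the members and 0.014 for all units. BY4742 minus BY4741 was then -0.38 for LEU1, -0.37 for HIS7 and -0.33 for LEU4. LYS9 differed in the opposite direction, at 0.31, which made 4 members with an unadjusted p under 0.05, against 11.0% of all units, and no member passed after adjustment.

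**Figure D3:**
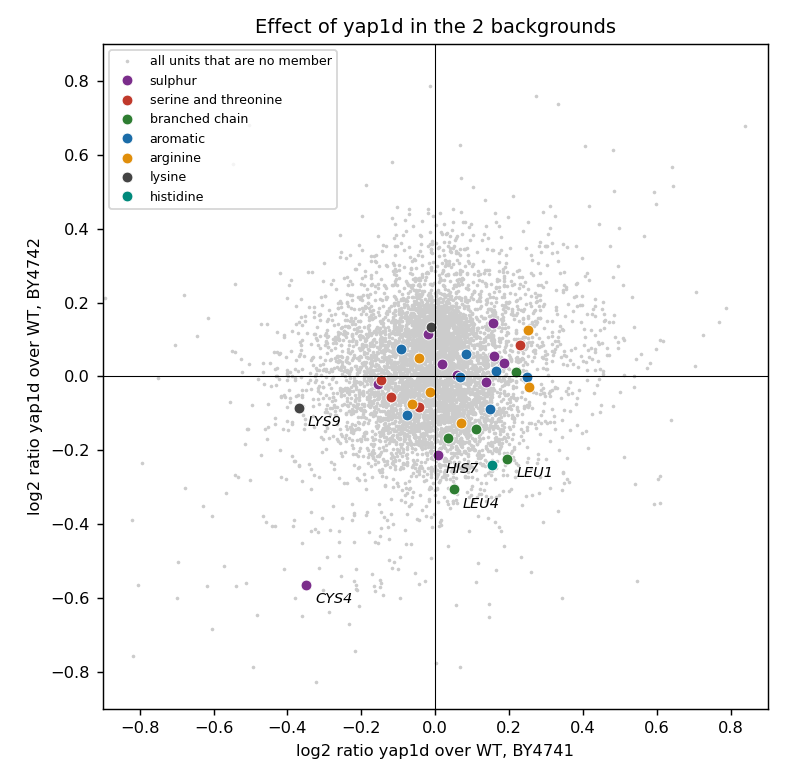
Log2 ratio of yap1d over WT in BY4741 (horizontal) against BY4742 (vertical), with the 35 members coloured by pathway and other units in grey; 33 grey units lie outside the plotted range. CYS4 is below 0 in both backgrounds, at -0.35 and -0.56, whereas LEU1, LEU4 and HIS7 are above 0 in BY4741 and below 0 in BY4742.

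The channel effect itself is the mean ratio over both orientations. It passed its own test in 30 of 35 members, 21 with a positive and 9 with a negative sign, where 72.0% of all units passed. Its median was 0.26 over the members, 0.0094 over all units and 0.068 over the 3127 named genes. Of the named genes 68.0% passed, 1247 with a positive and 880 with a negative sign. All 5 branched-chain genes were positive, from 0.42 to 0.67, as were the 4 genes of serine and homoserine synthesis, where SER1 reached 0.94; ARO4 was at 0.94 and LYS9 at 0.72. In the sulphur pathway 6 of 10 were negative, with MET14 at -0.61, MET1 at -0.59 and MET2 at -0.40, and CYS4 had the highest value of that pathway. SER1 was at 0.77 on slide 19 and -1.07 on slide 20 in BY4741, and 0.95 on slide 21 and -0.97 on slide 22 in BY4742, which shows how far a slide of one orientation can be from the mean of both.

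Neither marker gene passed the test of yap1d against WT, and the channel ratios of both separated the backgrounds. MET17, O-acetyl homoserine sulfhydrylase, is missing from both genotypes of BY4741. Not turned to yap1d over WT, its centred ratio was -0.71 and -0.77 on slides 19 and 20 of BY4741, and 0.43 and 0.32 on slides 21 and 22 of BY4742, a difference of 1.11 between the means. LYS2, alpha aminoadipate reductase, is missing from both genotypes of BY4742 and was at 0.36 on each BY4741 slide and at -0.20 and -0.20 on the BY4742 slides. For both markers the lower ratio was on the slides of the background that lacks the gene, and the 2 pairs of slides did not overlap. As yap1d over WT, MET17 was at 0.030 in BY4741 and 0.056 in BY4742. LYS2 was at -0.0019 over both backgrounds, and neither marker passed (adjusted p = 0.994 and adjusted p = 0.996).

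**Figure D4:**
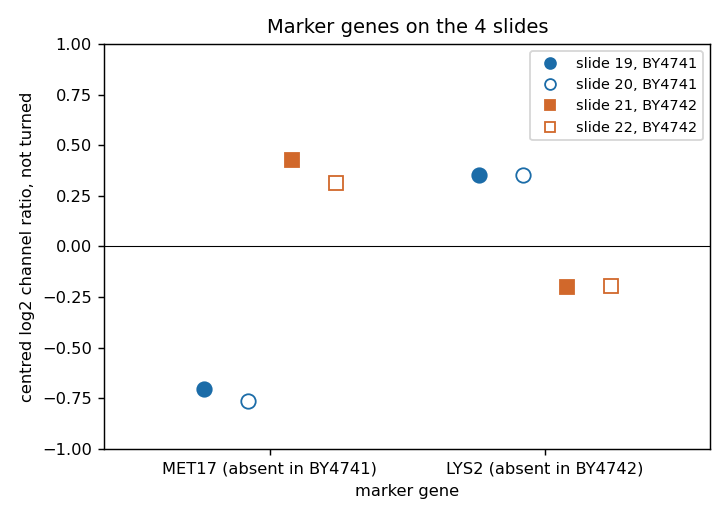
Centred log2 channel ratio, not turned to yap1d over WT, of the marker genes MET17 and LYS2 on the 4 slides; circles are BY4741 and squares BY4742, with open symbols for yap1d in channel 2. MET17 lies at -0.71 and -0.77 in BY4741, which lacks it, and above 0 in BY4742, and LYS2 lies above 0 in BY4741 and below 0 in BY4742, which lacks it.

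Other genes of amino acid metabolism were read from 5 lists, in which 67 of 118 genes were measured. Of these 1 rose, none fell and 66 did not pass, where 0.538% of all units were called higher and 1.21% lower. The gene that rose was GDH1, the NADPH-dependent glutamate dehydrogenase, at 2.08 on slide 19 and 0.44 on slide 20 in BY4741, and 1.09 on slide 21 and -0.38 on slide 22 in BY4742. Slide 19 was highest and slide 22 alone was below 0, and the mean was 0.81 ± 0.639 (adjusted p = 3.09e-11, and 0.0369 as adjusted p in the fit of 4 slides). The first of these p-values rests on the common SD, which is far below the SD of GDH1, and GDH1 was not called with the columns scaled to a common spread, after quantile normalization, or without slide 19 or 21. In all, 9 of the 67 were higher and 3 lower at an unadjusted p under 0.05, where 3.97% of all units were higher and 3.53% lower. All 5 lists were drawn up with earlier results of these data known, so these counts support nothing by themselves.

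Among 17 other biosynthesis enzymes, SHM2, the cytosolic serine hydroxymethyltransferase, was at 0.35 ± 0.0575 (adjusted p = 0.0691), the branched-chain aminotransferase gene BAT2 at -0.22 ± 0.211 and TYR1, prephenate dehydrogenase, at 0.22 ± 0.0893. SHM2 was above 0 on all 4 slides, at 0.59 on slide 19 and 0.020 on slide 20 in BY4741, and 0.68 on slide 21 and 0.095 on slide 22 in BY4742. In the list of sulphur uptake, salvage and use, none of 14 genes passed and the median was -0.016. Its lowest members were the glutathione synthesis genes GSH1, at -0.31 ± 0.202, and GSH2, at -0.19 ± 0.285, followed by the methionine permease gene MUP1 (-0.18 ± 0.0239) and SAM4 (-0.15 ± 0.0928). GSH1, the enzyme that joins glutamate to cysteine, was at 0.27 on slide 19 and -0.59 on slide 20 in BY4741, and -0.19 on slide 21 and -0.71 on slide 22 in BY4742 (adjusted p = 0.161).

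The 12 amino acid permeases had a median of 0.022, and none passed. TAT1, which imports tyrosine and other amino acids, was lowest, at 0.035 on slide 19 and -0.65 on slide 20 in BY4741, and 0.068 on slide 21 and -0.84 on slide 22 in BY4742. Its mean was -0.35 ± 0.0539 (adjusted p = 0.0691), while DIP5 (0.16 ± 0.119), AVT4 (-0.13 ± 0.0504) and PUT4 (0.093 ± 0.0221) were nearer to 0. Of 16 regulators of amino acid control none passed. UGA3, the activator of GABA use, was at 0.33 ± 0.179 (adjusted p = 0.108), RTG3 at 0.22 ± 0.0628, CBF1, which binds DNA with Met4, at 0.096 ± 0.0698 and GCN3 at -0.091 ± 0.0999. In the list of amino acid breakdown 4 of 8 genes were higher at an unadjusted p under 0.05, against 3.97% of all units, and none passed after adjustment. The list was drawn up with earlier results of these data known, so this count supports nothing by itself. The 4 genes were the GABA transaminase gene UGA1 (0.32 ± 0.0521, adjusted p = 0.136), the glycine cleavage gene GCV1 (0.30 ± 0.330), the proline oxidase gene PUT1 (0.28 ± 0.0663) and PDC6 (0.21 ± 0.167). PUT1 was above 0 on all 4 slides, at 0.13 on slide 19 and 0.53 on slide 20 in BY4741, and 0.45 on slide 21 and 0.015 on slide 22 in BY4742. With SHM2 it made 2 of the 67 genes, or 2.99%, with the same sign on all 4 slides, against 3.97% of all units. The list's median was 0.13, against 0.0044 for all units.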

How the data were processed

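RNA of yap1d and WT cultures was labelled indirectly and hybridised to spotted slides, per the labels. The values deposited are 1 log ratio per feature between a slide's channels, taken as log2. The sources used here do not give the authors' background correction, normalization or numerator. The array's number of slides limits the precision, and no intensities were used. Symbols came from the array annotation, updated to RefSeq R64; positions and sequences were not used.

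Each of the 8 columns was centred on its median, fort and faible columns were averaged per slide, ratios were turned by the labelled channels, and the slides of a background averaged. An intercept over the 2 backgrounds was fitted with lmFit and eBayes (limma 3.58.1, R 4.3.3), two-sided, with Benjamini-Hochberg adjustment over 6695 units and a threshold of 0.05. The prior on the variance was infinite in degrees of freedom, so every unit had 1 common SD. The strain and channel tests used the 4 slides, with 1 residual degree of freedom. Alternatives varied scan, centring, scaling, variance prior, features, filter, threshold and slides. Methods were tested on simulated data.

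Genes given slide by slide were those that passed, the 10 largest means, and the 3 largest strain differences and channel effects; SHM2, PUT1, GSH1, TAT1 and GDH1 were given so after their values were seen, as were the relation to the channel and its values with scaled columns. Of each further list the 4 largest were named. HIS3 and LEU2, which the rule also named, were not analysed here. The members and lists were chosen with earlier results of these data known. Figures were drawn with matplotlib 3.10.9.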

Additional observations from a re-analysis of the deposited data

How the results depend on the processing

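The 4-slide fit called 1 member lower; without slide 19 or without slide 21 it called 0, and without slide 20 or 22 it called 1, CYS4. Over all units the fits without slides 19, 20, 21 and 22 called 3, 111, 3 and 78 lower and 0, 73, 0 and 86 higher, on 1 residual degree of freedom each, against 53 lower and 20 higher with all 4 slides. Scaling to a common median absolute deviation and quantile normalization also called 0 members, and over all units each called 23 lower and 8 higher, against 81 and 36. As deposited, without centring, 54 were lower and 73 higher, with the median of all units at 0.060. No setting called a member higher. The strain difference and the channel effect were recomputed under the alternatives other than those on slides: none called a strain difference, and 27 to 31 members had a channel effect. Among other amino acid genes, those lower went from 0 to 1 (TAT1) with faible columns, print block medians removed, a robust variance prior, an adjusted p under 0.1, or without slide 20. Those higher went from 1 to 2 with faible columns, print block medians removed, a robust prior or the looser threshold (GDH1 and SHM2), to 4 as deposited without centring (GDH1, SHM2, UGA1 and UGA3), to 0 with either scaling, and to between 0 and 4 without a slide (0 without slide 19 or 21, 3 without 20, 4 without 22). Of the values of 14 named members under the alternatives, 180 kept direction and call or moved by less than their SD, 4 lost the call (all CYS4) and 12 moved by more. The 180 include settings that could not change a value, such as the robust prior and the fit of the 4 slides. Most values that moved by more were of MET32, whose SD over the 2 backgrounds was 0.00972. CYS4, the only member called, kept its sign. The sign held in 9 of 14 alternatives for LEU1, 10 for HIS7, 12 for ARO4 and SER1, 13 for ARG4 and 14 for the others. The cause was not tested. No paired analysis was possible across backgrounds because the labels give their slides no shared replicate numbers; within a slide yap1d and WT are already paired in the ratio.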

Other observations

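The 2 features of ARO8 had channel effects of opposite sign, 0.55 and -0.41, so that on slide 19 one read 0.40 and the other -0.38 as yap1d over WT, and on slide 22 -0.75 and 0.82. Balanced over the channels they were at -0.12 and 0.10. The features of MET2 had channel effects of -0.65 and -0.14 and balanced means of 0.0019 and 0.12. The gene averages of ARO8 and MET2 therefore join features that read differently on each slide. This was noticed after the values were seen and was not tested.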
